A study of Rattus norvegicus with 6 samples.

Results

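The transcripts described are those of 4 phospholipase C beta (PLCβ) genes, Plcb1 to Plcb4, and of 5 protein kinase C (PKC) genes, Prkca, Prkcb, Prkcd, Prkce and Prkch. They were chosen by name as the Gq arm below neuropeptide receptors, and all 9 were found by exact gene symbol among the 20653 genes with a row of counts. The data are bulk RNA sequencing of mesenchymal stem cells of rat nasal mucosa, which the labels call primary cells with the genotype SD. The 3 EMSC libraries carry no further label, and the 3 NPS-EMSC libraries are from the cells that, by the series title, overexpress neuropeptide S (NPS), a neuropeptide of the brainstem. The labels do not give the delivery vector, its promoter, a control vector in EMSC, the passage, or whether the replicates were separate cultures, so the p-values measure the spread between these libraries, which may be technical. Gene delivery, selection in culture and neuropeptide S itself cannot be told apart in this design.

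PLCβ enzymes are switched on at the membrane by the α subunits of the Gq class of G proteins. They split the lipid phosphatidylinositol 4,5-bisphosphate (PIP2) into inositol trisphosphate (IP3), which opens calcium channels of the endoplasmic reticulum, and diacylglycerol, which stays in the membrane and recruits PKC. The conventional kinases PKCα and PKCβ need both calcium and diacylglycerol, the kinases PKCδ, PKCε and PKCη respond to diacylglycerol without calcium, and the atypical kinases respond to neither. In mesenchymal and smooth muscle cells this route is known for its part in contraction, adhesion and growth control. The receptor of neuropeptide S couples to Gq as well as to Gs, and its gene, Npsr1, had no row in the counts.

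The 6 libraries held 39082245 to 40261205 counted reads. Nps itself had 0, 0 and 10 reads in EMSC replicates 1 to 3 and 93566, 77014 and 85916 reads in NPS-EMSC replicates 1 to 3, so the labels matched the libraries. Genes were compared with edgeR's quasi-likelihood test over the whole table. A gene was called when its p, adjusted by Benjamini and Hochberg's method over 14505 tested genes, was under 0.05. All 11 listed mesenchymal stromal markers were tested and called, 7 higher and 4 lower, with log2 fold changes of -0.997 (Nes) to 2.16 (Nt5e). Their summed level was 6034 to 6503 FPKM (fragments per kilobase of gene, scaled to library size) in EMSC and 6602 to 7082 FPKM in NPS-EMSC, led by Vim, Col1a2 and Col1a1. Of 6 smooth muscle markers, 5 were called higher (summed level 696 to 810 FPKM in EMSC and 2725 to 2949 FPKM in NPS-EMSC; led by Tagln, Acta2 and Cnn1). Of 10 tested leukocyte markers 8 were called lower and 2 higher (55.8 to 61.8 FPKM against 25.02 to 26.7 FPKM; led by Lyz2, Cd14 and Cd68). Lyz2 and Cd68 were among the lower ones, and Cd14 and Cd74 were the 2 called higher. Cd68 lost its call in 4 of 17 alternatives (log2 fold changes of -0.67 to -0.26 over the 17). The Cd74 values overlapped between the groups. Both tested epithelial markers, Krt18 and Krt8, were called higher (2.16 to 2.41 FPKM against 6.04 to 7.78 FPKM), while Krt5, the third by abundance, had 7, 3 and 18 reads in EMSC and 0 in each NPS-EMSC library and was too sparse for the test. Of 3 tested neuronal markers Tubb3 was called higher and Map2 and Snap25 lower, and the summed levels overlapped (1.21 to 1.55 FPKM and 1.16 to 1.40 FPKM). Of the endothelial markers only Pecam1 and Tek were tested, and neither was called. The part of these differences in the results on PLCβ and PKC was not tested. In bulk RNA, fewer cells of a type and less RNA per cell cannot be told apart.

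Prkca and Prkce fell in NPS-EMSC, Plcb4 fell slightly, Prkcd and the sparse Prkch rose, and Plcb1 and Plcb3 did not pass the test. Of the 9 genes, 7 passed the filter on low counts, each with at least 19 reads in every library, and Plcb2 and Prkcb did not. In the 7 tested genes, 2 were called higher and 3 lower. Over all tested genes 59.3% were called (29.7% higher and 29.5% lower), so 5 calls among 7 are near the background and are no result about the set. The values of the groups did not overlap in the same number, 5 of 7, against 64.7% of all tested genes. The median log2 fold change of the 7 was 0.10, beside -0.0048 over all tested genes, and it was -0.10 on log2(FPKM + 1) values, where Prkch did not pass the filter. Against a minimum change of 1.5-fold (edgeR's glmTreat), 1 of the 7, Prkca, was called, where 16.6% of all tested genes were.

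**Figure D1:**
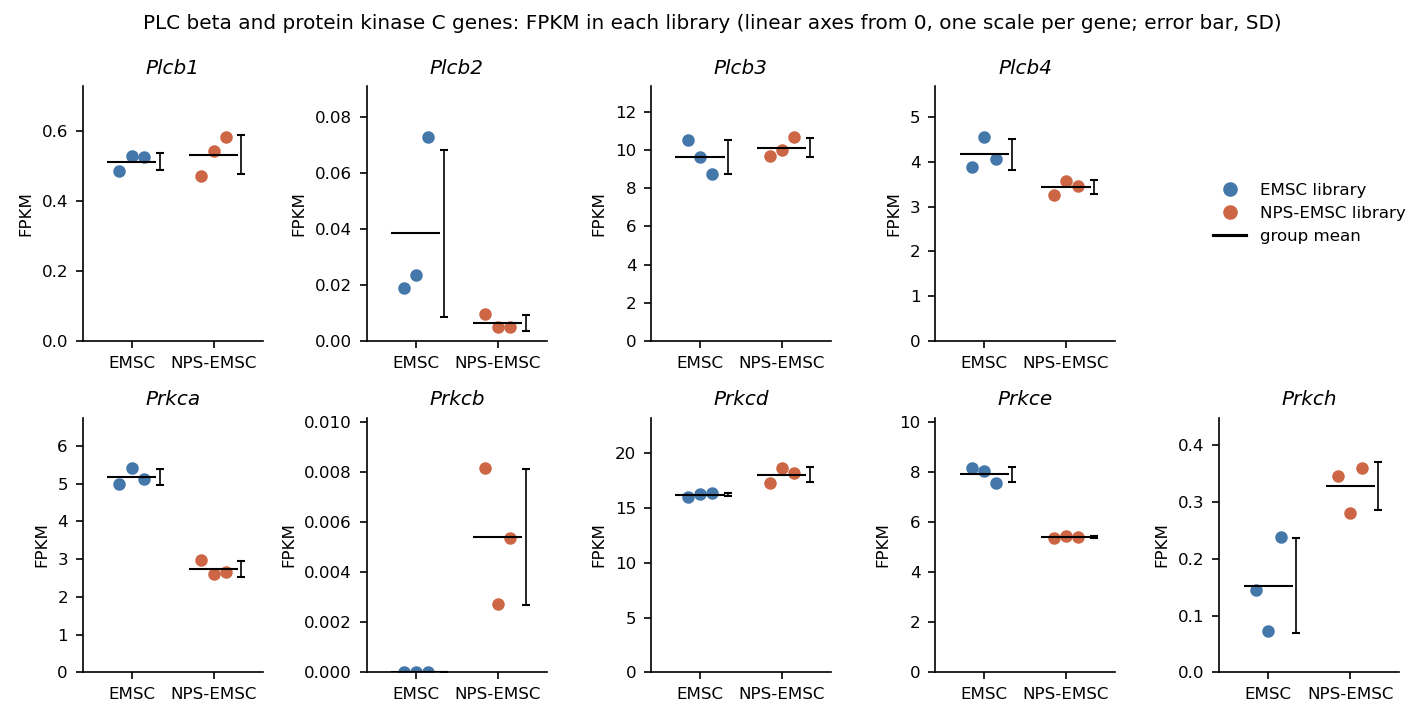
FPKM (vertical axes, linear from 0, a scale for each gene) of the 9 PLCβ and PKC genes in the 3 EMSC libraries (blue) and the 3 NPS-EMSC libraries (orange), with the group mean (line) and SD (bar). The groups are apart for Prkca, Prkcd, Prkce, Prkch and Plcb4 and overlap for Plcb1 and Plcb3, while Plcb2 and Prkcb lie under 0.1 FPKM in every library.

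Among the PLCβ genes, Plcb3 was the main transcript per length in both groups. Plcb3 encodes a widely expressed isoform that responds to Gαq and also to the βγ subunits of G proteins. It stood at 10.5, 9.67 and 8.73 FPKM in EMSC replicates 1 to 3 and at 9.71, 10.005 and 10.7 FPKM in NPS-EMSC replicates 1 to 3. The 2 ranges overlapped, and the log2 fold change (NPS-EMSC against EMSC) was 0.12 (SE 0.07, adjusted p = 0.141). Without EMSC replicate 1, the highest EMSC library, it was 0.17 and passed (adjusted p = 0.0414), so 1 library decided this call.

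Plcb4, an isoform best known from the cerebellum and the retina, came next. Its level was 3.88, 4.55 and 4.07 FPKM in EMSC and 3.26, 3.58 and 3.45 FPKM in NPS-EMSC. Every NPS-EMSC library lay below every EMSC library. The log2 fold change was -0.24 (SE 0.06, adjusted p = 0.00205), which left Plcb4 at 84.9% of its EMSC level, and 62.9% of all tested genes changed by more. In reads, Plcb4 was ahead of Plcb3 (8745 against 5553 over the EMSC libraries), and the order turned per length because the FPKM values rest on a length of 17531 bases for Plcb4 and 4808 bases for Plcb3. In EMSC the Plcb3 level was 2.31 times that of Plcb4 on the FPKM scale, and 2.95 times in NPS-EMSC.

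Plcb1 and Plcb2 contributed little. Plcb1, a brain-rich isoform that is also found in the nucleus, had 141, 154 and 150 reads in EMSC and 134, 154 and 167 reads in NPS-EMSC, or 0.513 ± 0.0245 and 0.533 ± 0.0562 FPKM (SD, n = 3). The groups overlapped, with a log2 fold change of 0.10 and an SE of 0.19 (adjusted p = 0.677), so the test was less precise for it than for Plcb3 and Plcb4. Plcb2, the isoform of blood cells, had 4, 5 and 15 reads in EMSC and 2, 1 and 1 reads in NPS-EMSC. Its 24 and 4 reads gave a ratio of 5.72 (EMSC over NPS-EMSC, exact 95% counting interval 1.97 to 22.7), with 15 of the 24 in EMSC replicate 3, and it was not tested. Of 10 tested leukocyte markers, 8 were called lower, and Cd14 and Cd74 were called higher. Ptprc, the CD45 gene, had 33, 20 and 41 reads in EMSC and 0, 1 and 0 in NPS-EMSC, and Csf1r, a receptor gene of macrophages, had 12, 16 and 38 reads against 1, 3 and 1. Cd14, more abundant than either, rose from 8.68 ± 1.49 to 17.5 ± 0.443 FPKM (SD, n = 3). Ptprc, Csf1r and Cd74 were picked after their values were seen, and the part of these markers in the Plcb2 reads was not tested.

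Summed over the 4 genes, the PLCβ level was 14.9, 14.8 and 13.4 FPKM in EMSC and 13.4, 14.1 and 14.7 FPKM in NPS-EMSC. These sums overlapped, and the NPS-EMSC mean was 98.2% of the EMSC mean. Plcb3 held 67.1 ± 3.06% of the sum in EMSC and 71.8 ± 0.929% in NPS-EMSC, and Plcb4 held 29.1 ± 2.65% and 24.3 ± 0.942% (SD, n = 3). The Plcb4 share was lower in each NPS-EMSC library (23.4% to 25.3%) than in any EMSC library (26.0% to 30.8%). As sums over chosen genes, these shares were not tested.

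Prkca had the clearest difference among the 9. It encodes PKCα, the conventional isoform found in most cells. The gene had 1803, 1955 and 1810 reads in EMSC and 1048, 912 and 942 reads in NPS-EMSC, or 5.0, 5.40 and 5.12 FPKM against 2.98, 2.60 and 2.65 FPKM. All NPS-EMSC libraries lay far below the EMSC libraries, and neither group varied much. Its log2 fold change was -0.87 (SE 0.07, adjusted p = 1.70e-10), a 1.83-fold decrease, and it also passed against a minimum change of 1.5-fold (adjusted p = 5.67e-04). A larger change in either direction was seen in 18.9% of all tested genes.

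Prkce encodes PKCε, which responds to diacylglycerol alone and binds actin. It fell from 8.15, 8.03 and 7.57 FPKM in EMSC to 5.39, 5.45 and 5.41 FPKM in NPS-EMSC. The NPS-EMSC libraries were almost equal to each other, and the groups did not overlap. The log2 fold change was -0.50 (SE 0.08, adjusted p = 8.97e-06), which left the gene at 70.6% of its EMSC level. This change is below 1.5-fold, and 35.8% of all tested genes changed by more.

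Prkcd rose slightly from the highest level of the 5 PKC genes. PKCδ, its product, responds to diacylglycerol alone and is known from cell death and stress signalling. It stood at 16.1, 16.3 and 16.4 FPKM in EMSC and at 17.3, 18.6 and 18.2 FPKM in NPS-EMSC. Every NPS-EMSC library was higher, by a log2 fold change of 0.20 (SE 0.06, adjusted p = 0.00571), or 1.15-fold, and 68.7% of all tested genes changed by more. So the 2 best expressed isoforms that respond to diacylglycerol without calcium went in opposite directions.

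Prkch and Prkcb were sparse. Prkch encodes PKCη, best known from epithelia, and had 38, 19 and 61 reads in EMSC against 88, 71 and 92 in NPS-EMSC. The groups did not overlap, but the EMSC libraries differed from each other more than 3-fold. Its level rose from 0.153 ± 0.0835 to 0.329 ± 0.0425 FPKM (SD, n = 3). The log2 fold change was 1.11 (SE 0.35, adjusted p = 0.00819), and its fitted change of 2.17-fold was the largest of the 7 while its level per length was under 1 FPKM in every library. Of the 6 epithelial markers, Krt18 and Krt8 were called higher in NPS-EMSC, Krt5 had reads in EMSC alone, and Epcam, Cdh1 and Krt14 had at most 4 reads in any library. Krt5 could be tested in 3 alternatives and was called lower with DESeq2 and with edgeR without the count filter, but not with limma on unfiltered log2(FPKM + 1). Their part in the Prkch result was not tested. Prkcb, the PKCβ gene, known from B cells and brain, had 0 reads in EMSC, which allows up to 0.0247 CPM (counts scaled to library size, taking 3 counts over the group), and 3, 1 and 2 reads in NPS-EMSC, or 0.0518 CPM. Prkcb was too sparse for the test, so no difference was read from these counts.

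**Figure D2:**
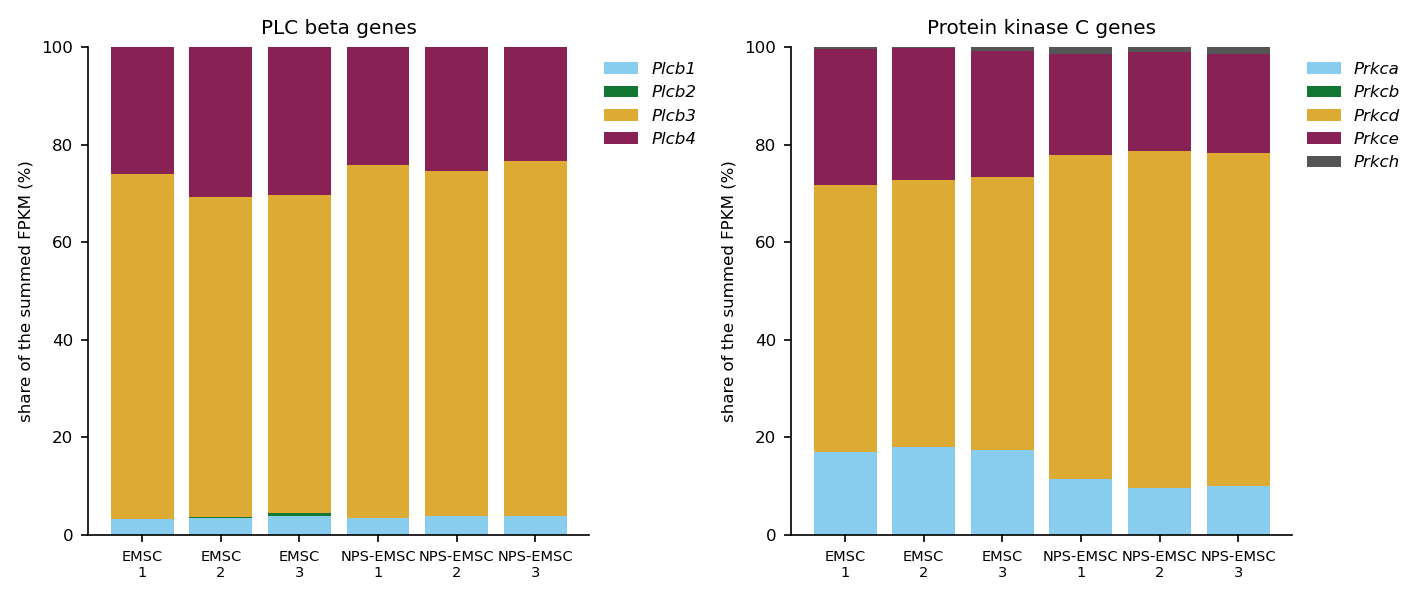
Share of the summed FPKM (vertical axes, percent) held by each gene of the PLCβ set (left) and of the PKC set (right) in each of the 6 libraries. In the PKC set, the Prkcd part grows from about 55.1% in EMSC to about 68.0% in NPS-EMSC while those of Prkca and Prkce shrink, and the PLCβ set shifts less.

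The make-up of the PKC set therefore differed between the groups. The order of levels, Prkcd, Prkce, Prkca, Prkch and Prkcb, was the same in both groups, and no neighbours in it overlapped within a group. Prkcd held 55.1 ± 0.670% of the summed FPKM in EMSC and 68.0 ± 1.36% in NPS-EMSC (SD, n = 3). The share of Prkce went from 26.8 ± 0.968% to 20.4 ± 0.268%, and that of Prkca from 17.5 ± 0.548% to 10.3 ± 0.970%. Per library, the Prkcd level was 3.21, 3.02 and 3.2 times that of Prkca in EMSC and 5.81, 7.17 and 6.87 times in NPS-EMSC. The sum over the 5 genes was 29.5 ± 0.284 FPKM in EMSC and 26.6 ± 0.479 FPKM in NPS-EMSC, without overlap.

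Prkci, which encodes the atypical isoform PKCι of cell polarity, was expressed at a level close to that of Prkcd. The gene had 18.6, 17.1 and 18.9 FPKM in EMSC and 22.0, 20.1 and 20.8 FPKM in NPS-EMSC, each NPS-EMSC library above each EMSC library, and rose by 0.24 on the log2 scale (SE 0.05, adjusted p = 3.20e-04). Prkcz, the other atypical gene, had 49, 43 and 59 reads in EMSC and 7, 37 and 27 in NPS-EMSC. Each NPS-EMSC library lay below each EMSC library, but Prkcz did not pass (log2 fold change -0.97, SE 0.45, adjusted p = 0.0658). Prkcq was under 0.5 FPKM in every library and did not pass either, though its groups did not overlap. Values of Prkcz and Prkcq were known when these genes were picked, outside the rule. With Prkci, Prkcz and Prkcq added to the 5 genes, a sum also formed after the values were seen, the totals overlapped, at 48.4 ± 0.764 FPKM in EMSC and 47.9 ± 0.392 FPKM in NPS-EMSC (SD, n = 3; 99.1% of the EMSC mean). Of these 8 genes Prkci held the largest share, 37.7 ± 1.43% in EMSC and 43.7 ± 1.63% in NPS-EMSC. On that denominator the Prkcd share was 33.6 ± 0.669% and 37.7 ± 1.72%, a difference of 4.08 points where it was 12.9 points over the 5 genes, and the groups still did not overlap. The Prkca share was 10.7 ± 0.585% and 5.72 ± 0.386%. The lower sum and the size of the Prkcd shift thus belong to the 5 genes and not to these 8.

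Promoter sequences show how the changed genes compare upstream of their starts. RefSeq entries (assembly GRCr8) were found for 6 of the 9 genes, and the 250 bases before the annotated start are printed for the 4 called genes among them. Prkca and Prkce fell together, Plcb4 fell slightly, and Prkcd, which rose, is shown beside them. Capitals mark GC boxes (GGGCGG on either strand, the core of Sp1 sites) and a TATA box (TATAAA on either strand), and overlapping matches were counted separately. The windows are chr10:93787328-93787577 (minus strand), chr6:14204289-14204538 (minus strand), chr16:5805840-5806089 (minus strand) and chr3:143405723-143405972 (plus strand), each 5′ to 3′ along its gene.
Prkca: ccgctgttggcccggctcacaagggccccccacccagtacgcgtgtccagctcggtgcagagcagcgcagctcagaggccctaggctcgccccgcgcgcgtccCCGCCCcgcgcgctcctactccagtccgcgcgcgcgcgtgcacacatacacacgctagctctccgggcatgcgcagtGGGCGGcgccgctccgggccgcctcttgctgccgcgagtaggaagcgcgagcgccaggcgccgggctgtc
Prkce: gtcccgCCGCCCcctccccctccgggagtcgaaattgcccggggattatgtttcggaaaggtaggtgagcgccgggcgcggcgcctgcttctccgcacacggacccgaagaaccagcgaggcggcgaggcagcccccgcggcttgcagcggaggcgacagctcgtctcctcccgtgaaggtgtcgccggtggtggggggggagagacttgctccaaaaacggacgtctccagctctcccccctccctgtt
Prkcd: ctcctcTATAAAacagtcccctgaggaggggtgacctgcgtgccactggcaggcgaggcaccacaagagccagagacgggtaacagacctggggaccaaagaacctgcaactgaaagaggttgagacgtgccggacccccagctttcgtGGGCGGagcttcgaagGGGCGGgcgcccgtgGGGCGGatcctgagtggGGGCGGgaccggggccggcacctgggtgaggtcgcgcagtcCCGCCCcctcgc
Plcb4: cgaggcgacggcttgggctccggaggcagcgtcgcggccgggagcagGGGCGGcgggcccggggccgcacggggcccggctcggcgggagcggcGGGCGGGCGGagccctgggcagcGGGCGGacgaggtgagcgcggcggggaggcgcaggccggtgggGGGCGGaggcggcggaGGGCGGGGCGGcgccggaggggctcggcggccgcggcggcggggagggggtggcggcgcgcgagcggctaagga

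All 4 printed promoters are rich in G and C, from 67.6% in Prkcd to 86.4% in Plcb4, beside a median of 51.2% over 33465 promoters of the same length. GC boxes numbered 2 in Prkca, 1 in Prkce, 5 in Prkcd and 7 in Plcb4, and 30.5% of all promoters hold at least 1. Prkcd had a TATA box match 244 to 239 bases before the start, and 12.9% of all promoters have one. The 2 promoters of the genes that fell most, Prkca and Prkce, thus had fewer GC boxes than that of Prkcd. Plcb4, which fell less, had the most. Of the promoters not printed, that of Plcb3 had 6 GC boxes and that of Plcb1 had 0, and neither gene was called. The number of GC boxes thus did not follow the direction of change. None of the 4 windows (0 matches) held a CCAAT box (CCAAT, 34.02% of all promoters), a TPA response element (TGACTCA, 4.05%), a cAMP response element (TGACGTCA, 1.59%), a CACGTG E-box (5.59%) or a CArG box (1.5%), each searched on both strands. These are matches of letters in short windows and say nothing about binding.

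**Figure D3:**
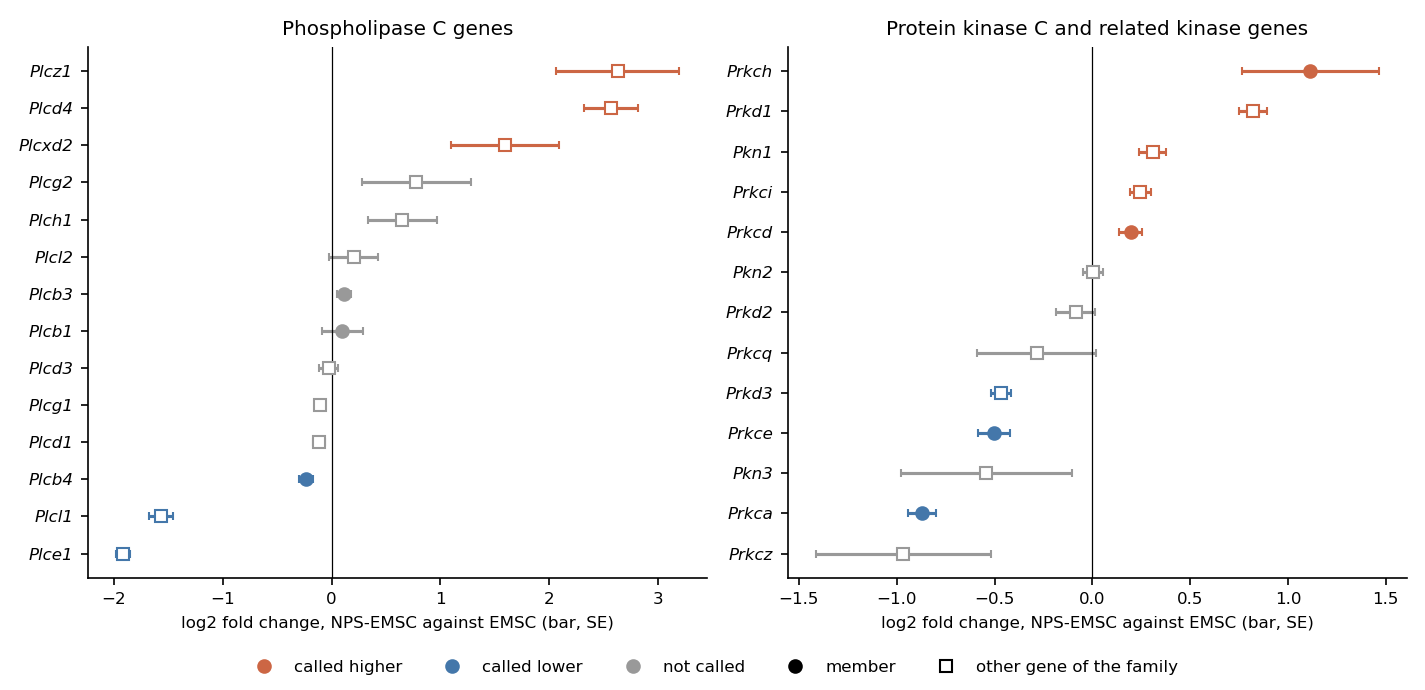
Log2 fold change, NPS-EMSC against EMSC (horizontal axes, bars for SE), of the tested phospholipase C genes (left) and of tested PKC and related kinase genes (right). Filled circles are the PLCβ and PKC genes of the set, and open squares the other genes of the families. Plcb1, Plcb3 and Plcb4 sit near 0 while Plce1 and Plcl1 lie far to the left, and Prkca and Prkce lie left of Prkcd and Prkch.

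Some other phospholipase C genes had larger fold changes than the tested PLCβ genes. Of 11 tested members of the list of other phospholipase C genes, 3 were called higher and 2 lower, or 45.5% called beside 59.3% of all tested genes. The split was 1 higher and 4 lower of 8 tested under a filter of 1 CPM in 3 libraries, and 3 higher and 4 lower with upper-quartile factors. Plce1, whose product is driven by small G proteins of the Ras family, had 8.37, 9.36 and 9.57 FPKM in EMSC and 2.36, 2.38 and 2.25 FPKM in NPS-EMSC, a 3.78-fold decrease (log2 fold change -1.92, SE 0.06, adjusted p = 8.97e-19). Its EMSC level was close to that of Plcb3, and its NPS-EMSC level was under that of Plcb4. Plcl1, which encodes a relative without catalytic activity that binds IP3, fell 2.97-fold from 4.28 ± 0.339 to 1.39 ± 0.155 FPKM (SD, n = 3). Plcd4 rose 5.94-fold, but only to 0.679 ± 0.0635 FPKM. The best expressed phospholipase C gene was Plcg1, the isoform of receptor tyrosine kinases, at 27.4 ± 0.933 and 24.6 ± 1.06 FPKM, which did not pass (adjusted p = 0.0612) and was named after its values were seen. The list median was 0.21, and it was -0.08 under that filter and -0.15 on log2(FPKM + 1), so the list gives no direction.

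Among 10 tested PKC relatives and remaining PKC genes, 3 were called higher, 1 lower and 6 did not pass, which is 40.0% called beside 59.3% of all tested genes. Prkd1, a protein kinase D gene whose product PKC phosphorylates, rose from 3.29, 3.11 and 3.11 FPKM to 5.29, 5.22 and 5.82 FPKM (log2 fold change 0.82, SE 0.07, adjusted p = 3.32e-10). Prkd3, of the same kinase family, went the other way, from 17.5 ± 0.782 to 12.3 ± 0.378 FPKM (SD, n = 3; log2 fold change -0.47, SE 0.05). The split was 3 higher and 2 lower with limma-voom, with a replicate block and without the count filter. It was the same under a filter of 1 CPM in 3 libraries, where 9 were tested, and without NPS-EMSC replicate 2. The median of the list was -0.04, and 0.08 on log2(FPKM + 1).

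Upstream of PLCβ, the Gq class α subunits did not move together. Gnaq, the Gαq gene, fell from 22.8, 24.0 and 23.0 FPKM in EMSC to 16.9, 16.7 and 17.5 FPKM in NPS-EMSC (log2 fold change -0.41, SE 0.05, adjusted p = 5.38e-08). Gna11, its close relative, stood at 23.9 ± 0.888 and 25.6 ± 1.48 FPKM (SD, n = 3) and did not pass (adjusted p = 0.107; named after its values were seen). Gna14 rose 1.92-fold to 1.29 ± 0.273 FPKM, and Gna15 was not tested. Of 51 listed receptors that couple to Gq, 43 had a row and 26 were tested, with 8 called higher and 12 lower (76.9% called, beside 59.3% of all tested genes; 29.7% higher and 29.5% lower). Adra1d, an α1 adrenergic receptor gene, rose 9.66-fold to 3.69 ± 0.166 FPKM, Avpr1a, a vasopressin receptor gene, rose from 55.1 ± 2.67 to 94.8 ± 6.67 FPKM, and S1pr3, a sphingosine 1-phosphate receptor gene, rose from 13.7 ± 1.38 to 25.6 ± 0.924 FPKM. These 3, with the smallest p, all rose. The largest change among the tested receptors was in Ednrb, named after its values were seen. It rose 52.5-fold, from 0.544 ± 0.241 to 28.3 ± 1.97 FPKM, and was called (adjusted p = 1.91e-05). The most abundant of the 12 called lower, picked after their values were seen, were Agtr1a, an angiotensin receptor gene, which fell from 38.5 ± 2.79 to 32.1 ± 0.999 FPKM, and S1pr2, a relative of S1pr3, which fell from 28.3 ± 1.35 to 17.5 ± 1.30 FPKM (SD, n = 3). The median over the tested receptors was -0.30. Summed over the 43 with a row, however, the receptor level was higher in NPS-EMSC (432 to 443 FPKM) than in EMSC (359 to 371 FPKM). This sum is weighted to the most abundant genes. F2r, the most abundant and picked after its values were seen, was called higher, from 120 ± 4.11 to 145 ± 3.95 FPKM (SD, n = 3). With 12 of the 26 tested receptors called lower, the sum gives no direction for the list.

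In the lists of genes that supply or clear the lipids of the route, higher calls outnumbered lower ones. In the PIP2 synthesis list, 11 of 19 tested genes were called higher and 4 lower (median log2 fold change 0.24), beside 29.7% and 29.5% of all tested genes. Pitpnc1, a phosphatidylinositol transfer protein gene, rose 2.11-fold to 28.2 ± 1.16 FPKM (SD, n = 3), and Cds2, which makes the precursor CDP-diacylglycerol, rose 2.21-fold to 21.6 ± 1.84 FPKM. Pitpnm3 fell 7.83-fold from 1.502 ± 0.187 FPKM. Diacylglycerol kinases convert the lipid that activates PKC into phosphatidic acid, and of 9 tested genes 6 were called higher and 2 lower (median 0.58), beside the same shares. Dgka rose from 4.63, 4.05 and 4.56 FPKM to 8.34, 8.31 and 8.51 FPKM (log2 fold change 0.97, SE 0.07, adjusted p = 6.10e-12), and Dgkd rose 1.5-fold, while Dgke fell from 2.68 ± 0.244 to 1.63 ± 0.0674 FPKM. On log2(FPKM + 1), where fewer of these genes pass the filter, 4 of 6 diacylglycerol kinases were called, 2 higher and 2 lower, so that split depends on the scale and filter.

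**Figure D4:**
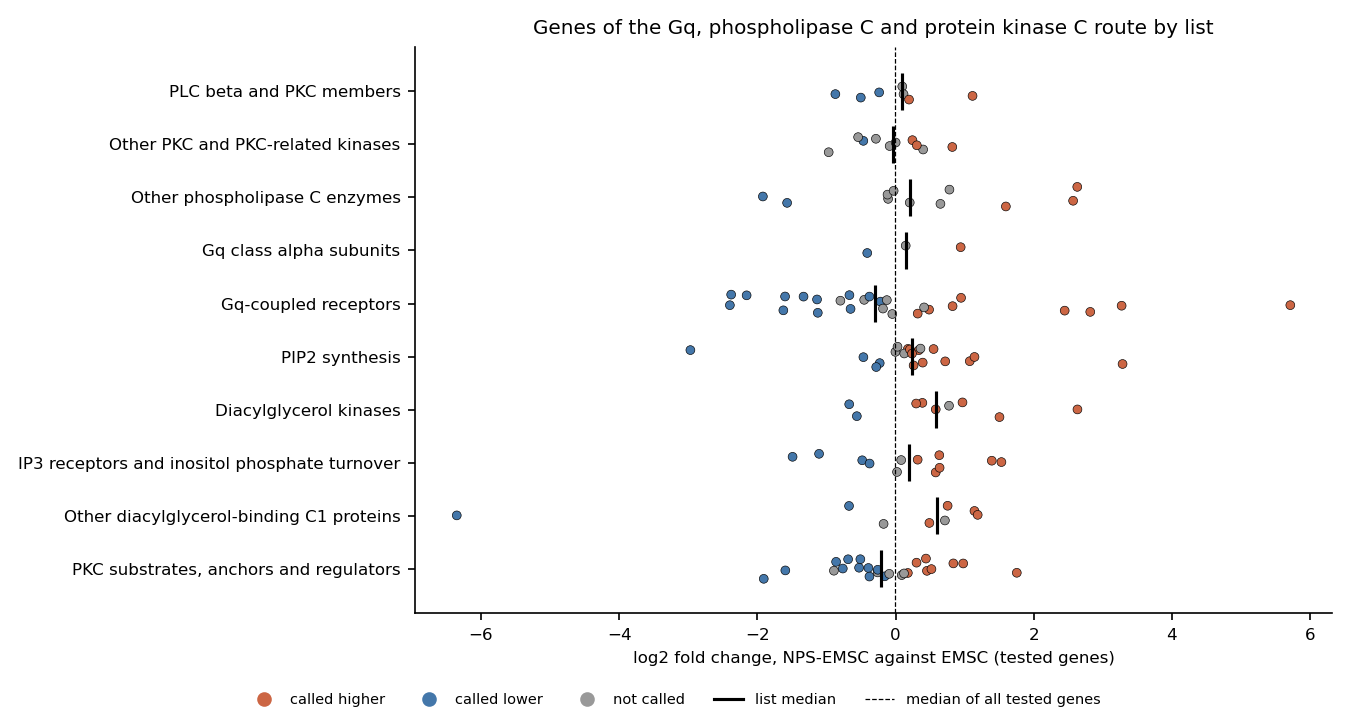
Log2 fold change, NPS-EMSC against EMSC (horizontal axis), of every tested gene in the PLCβ and PKC set and in 9 lists of the same route. Orange points were called higher, blue points lower and grey points were not called, with list medians as solid bars and the median of all tested genes dashed. Points lie on both sides of 0 in each list, and the list medians run from -0.30 to 0.60.

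On the IP3 side, 6 of 12 tested genes were called higher and 4 lower (median 0.20), or 83.3% called beside 59.3% of all tested genes (29.7% higher and 29.5% lower). Inpp5a, the phosphatase gene that ends the IP3 signal, rose from 14.8, 14.2 and 14.995 FPKM in EMSC to 41.0, 41.0 and 41.5 FPKM in NPS-EMSC (log2 fold change 1.53, SE 0.05, adjusted p = 6.94e-19). Irag1, whose product restrains IP3 receptors in smooth muscle, rose 2.63-fold to 42.8 ± 2.26 FPKM (SD, n = 3). Itpr2, an IP3 receptor gene, fell 2.81-fold from 5.90 ± 0.461 to 2.04 ± 0.171 FPKM. The other receptor genes, named after their values were seen, were Itpr3, which fell 1.40-fold, and Itpr1, the most abundant, at 17.5 ± 1.10 and 17.9 ± 1.21 FPKM (adjusted p = 0.227). Smooth muscle markers were higher in the same libraries, as given above, and their part in the Irag1 result was not tested.

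Diacylglycerol also binds proteins other than PKC through C1 domains. Of 8 tested genes listed from families of such proteins, 4 were called higher and 2 lower (median 0.60). Whether the product of each listed gene has this domain was not checked. The 6 calls of 8 stand beside 59.3% of all tested genes (29.7% higher and 29.5% lower). Unc13c, a vesicle priming gene, fell from 2.94, 3.76 and 3.86 FPKM to 0.0211, 0.0581 and 0.0314 FPKM, the largest change in this list. Chn1, the chimaerin gene of Rac inactivation, rose 2.28-fold to 3.96 ± 0.258 FPKM (SD, n = 3), and Rasgrp3, a Ras activator gene, rose 2.21-fold to 0.874 ± 0.0244 FPKM.

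Among 24 tested substrates, anchors and regulators of PKC, 11 were called lower and 8 higher (median -0.21), which is 79.2% called beside 59.3% of all tested genes (29.5% lower and 29.7% higher). No test set these lists against other genes. Add3, the γ-adducin gene of the membrane skeleton, fell from 25.3, 26.1 and 25.1 FPKM to 6.02, 7.15 and 6.61 FPKM (log2 fold change -1.91, SE 0.06, adjusted p = 1.85e-19). Cavin3, a caveolar protein gene whose product binds PKCδ, fell from 161 ± 5.42 to 86.2 ± 7.01 FPKM (SD, n = 3). Hspb1, a small heat shock protein gene, rose 1.97-fold to 148 ± 10.8 FPKM. Marcks, the classical PKC substrate, was named after its values were seen and fell from 24.9, 25.8 and 23.8 FPKM to 13.6, 14.99 and 13.99 FPKM, a log2 fold change of -0.76 (SE 0.05) beside -0.87 for Prkca. Transcript levels do not measure the lipid signals or the phosphorylation by which these proteins act.

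The genes whose profile over the 6 libraries was most like that of a PLCβ or PKC gene were found among 12635 tested genes with a mean of at least 1 CPM, by the root mean square distance of log2 CPM after centring each gene. For Prkcd these were Uqcrc2, Cct8 and Tex10, at distances of 0.0121 to 0.0172, where the median gene lay at 0.205. Plcb3 was nearest to Med7, Adnp2 and Sf3a3 (0.0328 to 0.0369), and Plcb4 to Zfp949, Smc4 and Golm2 (0.0325 to 0.0357). For Prkch, the PKC gene with the largest fold change, Inmt, Rarb and Osr2 were nearest, at 0.130 to 0.161 beside a median of 0.576. With 2 groups of 3 libraries, many genes share such profiles, and the distances are a description.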

How the data were processed

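RNA of 3 EMSC and 3 NPS-EMSC libraries was sequenced by the authors. Per the labels' protocols, TRIzol RNA went into VAHTS Universal V6 libraries. Tools listed in the submitters' processing notes, without role or order, are DESeq, HTSeq, HISAT2, fastp, StringTie and R 3.2.0, with genome build, annotation and strand setting not given in the sources used here. Whether reads of overlapping or antisense genes were separated is therefore not known.

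The authors deposited raw read counts per gene, which were tested, and an FPKM table of the same 20653 genes, used for levels per length. Both imply 1 length per gene, to within 0.1 percent, for all 20653 genes, so FPKM is the count rescaled by the column total. Fold changes and CPM use TMM scaling, FPKM does not.

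Genes were tested with edgeR 4.0.16 (R 4.3.3; glmQLFit with robust estimation, glmQLFTest, filterByExpr with a minimum count of 10, prior count 2). The SE was taken as |log2 fold change| over the square root of F. The procedure was tested on simulated data. The Plcb2 ratio has an exact conditional binomial interval, and it and the limit for 0 reads cover counting error only. Profiles used log2(CPM + 0.5). No list-level test was run. Some genes of the lists are not reported here by name.

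The genes and lists were chosen with earlier results of these data known. Named were the 9 genes, Nps, Npsr1, up to 3 called members of each list by smallest p, the 3 most abundant markers per list and the 3 nearest profiles. Promoter letters come from RefSeq (GRCr8), matched by symbol, for 6 of 9 genes. Alternatives were DESeq2 1.42.0, limma-voom (limma 3.58.1), upper-quartile and RLE factors, other filters, log2(FPKM + 1) and log2(FPKM + 0.1), a replicate block, glmTreat at 1.5-fold and each library left out.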

Additional observations from a re-analysis of the deposited data

How the results depend on the processing

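Over the 17 alternatives, no tested PLCβ or PKC gene changed direction. Prkca passed in all 17, with log2 fold changes of -0.94 to -0.72, and Plcb1 in none (0 of 17). Plcb4, Prkcd and Prkce lost their calls only against a minimum change of 1.5-fold, at the same log2 fold changes of -0.24, 0.20 and -0.50 (adjusted p = 1.0 for each), and so did Prkch at 1.11 (adjusted p = 0.107). Prkch could not be fitted in the 2 filtered FPKM settings. Without the count filter Plcb2 and Prkcb could be tested and did not pass (log2 fold changes of -1.55, adjusted p = 0.142, and 1.02, adjusted p = 0.124). Plcb3 passed only without EMSC replicate 1, and its log2 fold changes with 1 library left out ranged from 0.046 (without EMSC replicate 3) to 0.17.

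Against 1.5-fold, 2414 genes were called instead of 8600, with 1 instead of 5 PLCβ and PKC genes (Prkca), 1 instead of 4 PKC relatives, 0 instead of 2 Gq α subunits, 4 instead of 15 PIP2 synthesis genes, 2 instead of 8 diacylglycerol kinases, 4 instead of 10 IP3 genes, 3 instead of 6 C1 proteins and 7 instead of 19 PKC substrates and anchors. A smaller share of the calls was lost in 2 lists, with 14 instead of 20 Gq-coupled receptors and 4 instead of 5 other phospholipase C genes. These counts fall because the hypothesis is stricter. Called diacylglycerol kinases numbered 4 on log2(FPKM + 1) and 4 on log2(FPKM + 0.1), where fewer were tested. By raw reads instead of FPKM, the share of the PKC set moved by -13.0 points for Prkca, 14.9 for Prkcd and -3.27 for Prkce (by FPKM -7.20, 12.9 and -6.44), since length no longer counts. The endothelial marker Tek, not called, had log2 fold changes of -0.33 to 0.025 with 1 library left out, reversed only without NPS-EMSC replicate 2.

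Replicate numbers did not pair the libraries. Deviations of same-numbered libraries correlated at -0.04, 0.05 and 0.04, and not every library correlated best with its own number. The replicate block gave 8588 called genes and 5 called PLCβ and PKC genes. At 39082245 to 40261205 reads per library, the depth left Plcb2 and Prkcb at too few reads for a test.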
